A study of Mus musculus with 10 samples.

Results

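The bile acid uptake and signalling genes described here are Slc10a2, Fabp6, Slc51a, Slc51b, Fgf15, Nr1h4 and Nr0b2, and were chosen by name. All probe sets annotated to 1 of these symbols alone were taken, which gave 6 probe sets for 6 of the 7 genes, among 22690 probe sets and 12393 named genes on the array. Slc51b had none and is not analysed here. Of the 6 probe sets, 3 (Fabp6, Slc51a, Nr1h4) passed the filter on low signal, a mean scaled signal above 123 over all arrays, and 3 (Slc10a2, Fgf15, Nr0b2) did not.

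Bile acids are made in the liver, released into the small intestine and largely taken back up at its distal end, the ileum. Uptake across the brush border, passage through the enterocyte and export to the portal blood each use a dedicated protein, and bile acids inside the cell activate the nuclear receptor FXR, which raises the export and carrier genes and the hormone that slows bile acid synthesis in the liver. In mice the transcription factor Gata4, present in duodenum and jejunum and absent from ileum, is known to hold much of this programme down outside the ileum. Levels of these genes in a jejunal sample were read here as a measure of distal segment content.

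RNA of the jejunum was measured on Affymetrix mouse 430A arrays, where a probe set is a group of short probes for a transcript, with 5 arrays labelled Klf9KO and 5 labelled Klf9WT. Klf9KO mice lack the zinc finger transcription factor Klf9 (Klf9-/-) and Klf9WT mice are wild type. All were males at postnatal day 30, and the sources used here give no strain, no treatment and not which part of the gene is lost. The design text gives 1 animal per array, while the labelling protocol speaks of RNA pools, and a characteristic of Klf9KO replicate 1 names both genotypes.

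Scaled signals were compared as log2(signal + 50), so that a difference understates the change of dim genes, and the number of arrays limits the precision of every value. The brightest Klf9 probe set read 944, 485, 340, 526 and 451 on Klf9KO replicates 1 to 5, against 551, 1320, 1038, 1249 and 964 on Klf9WT replicates 1 to 5. The log2 difference was -0.86 (limma adjusted p = 0.466). The arrays labelled replicate 1 go against their labels in both genotypes, and the difference of each bile acid gene is also given without them. Of 14 proximal genes with a probe set, 11 were above the filter, among them Gata4 (987 to 1276 over the 10 arrays), Lct, which encodes lactase (5446 to 13874), and Fabp1, the fatty acid carrier of the proximal gut (8527 to 18369). Below it were Pdx1, Onecut1 and Trpv6, at most 87.1, 57.3 and 132. Of 13 distal genes with a probe set, 7 were above the filter, among them Car4 (1926 to 3937), Pyy (504 to 1190) and Fxyd4 (153 to 321), which colon expresses too. The other 6 (Car1, Aqp8, Hoxd13, Hoxa13, Insl5 and Slc6a14) were at most 147. In whole tissue, fewer cells of a type and less RNA per cell cannot be told apart.

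No bile acid gene differed between the genotypes beyond the spread between arrays. Of the 3 genes above the filter, 0 passed in limma at an adjusted p of 0.05, against 0% of all 13584 tested probe sets. An unadjusted p under 0.05 was found for 0 of the 3 and for 7.89% of all tested. The 2 genotypes overlapped for all 6 probe sets, where 1.55% of all tested probe sets were without overlap. Fabp6 had the widest spread of the 6 within both genotypes.

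**Figure D1:**
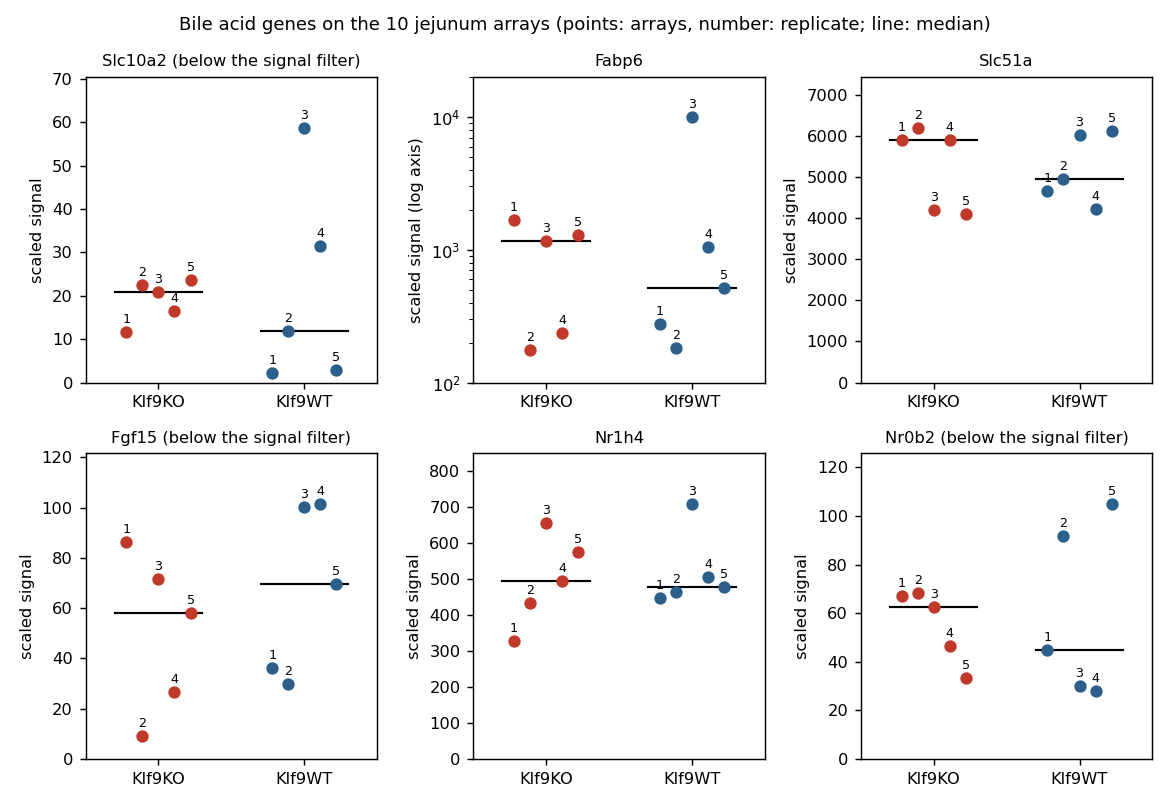
Scaled signal of each bile acid gene (y axis; log axis for Fabp6, linear from 0 for the others) on the Klf9KO and Klf9WT arrays (x axis). Points are arrays numbered by replicate and lines are medians; Fabp6 spans 176 to 10006 while Slc51a stays between 4116 and 6198.

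Slc10a2, the sodium-dependent transporter that carries bile acids across the ileal brush border, was at the bottom of the signal range on every array. It read 11.6, 22.4, 20.8, 16.6 and 23.6 on Klf9KO replicates 1 to 5, against 2.30, 11.9, 58.7, 31.5 and 2.80 on Klf9WT replicates 1 to 5. The highest and the lowest arrays were both Klf9WT, with all Klf9KO arrays between them. The log2 difference was 0.01 (95% interval -0.38 to 0.39 from the fit without the filter), with an exact two-sided permutation p of 0.984, and -0.05 without both arrays labelled replicate 1. At such signals the array separates little from background, and no level of the transporter can be read from these values.

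Fabp6, the ileal bile acid binding protein that carries bile acids through the enterocyte, was the most variable of these genes. It read 1669, 176, 1160, 234 and 1290 on Klf9KO replicates 1 to 5, against 277, 181, 10006, 1054 and 517 on Klf9WT replicates 1 to 5. Klf9WT replicate 3 stood far above the next array, Klf9KO replicate 1, and each genotype held at least 1 array at or below 181 and 1 at or above 1054. The highest array was 56.8-fold above the lowest. The SD within genotypes was 1.81 on the log2 scale, against a median of 0.21 over all tested probe sets, and only 4 of 13584 tested probe sets had a larger one.

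The genotype means of Fabp6 could not be separated against that spread. They were 9.47 ± 1.37 on the Klf9KO arrays and 9.75 ± 2.16 on the Klf9WT arrays (log2, SD, n = 5 each), a log2 difference of -0.28 ± 0.88 (SE; limma adjusted p = 0.957; 95% interval -2.17 to 1.60). Wash runs is the name used here for groups of arrays told apart by the recorded hybridization times. The Fabp6 difference was 1.18 within run 1, -2.51 within run 2 and 1.24 within run 3. It was 1.41 within fluidics module 4, the only module that held both genotypes. Runs 1 and 2 held 2 arrays of each genotype, run 3 held 1 of each, and module 4 held 1 Klf9KO and 2 Klf9WT arrays. Differences within runs and within the module therefore rest on very few arrays, for every gene. Over all arrays, the sign of the Fabp6 difference turned when any 1 of 3 arrays was left out. It became 0.60 without Klf9WT replicate 3, 0.13 without Klf9KO replicate 2 and 0.05 without Klf9KO replicate 4. Without both arrays labelled replicate 1 it was -0.95.

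The start regions of 3 of these genes are shown because Fabp6 varied most, Slc10a2 is its partner in ileal uptake and Slc51a was bright on all arrays. The windows run from 250 bases before to 50 after the RefSeq gene start (build GRCm38.p6), 5′ to 3′ on the gene's strand, which is the minus strand for all 3. They are chr11:43601513-43601812 for Fabp6, chr8:5105238-5105537 for Slc10a2 and chr16:32487830-32488129 for Slc51a. Capitals mark matches to the motifs named after the sequences.
Fabp6: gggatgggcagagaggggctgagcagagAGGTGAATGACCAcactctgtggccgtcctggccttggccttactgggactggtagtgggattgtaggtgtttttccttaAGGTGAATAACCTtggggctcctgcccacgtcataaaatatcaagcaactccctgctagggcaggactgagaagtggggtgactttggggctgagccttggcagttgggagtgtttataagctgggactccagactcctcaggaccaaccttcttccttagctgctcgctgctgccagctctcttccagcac
Slc10a2: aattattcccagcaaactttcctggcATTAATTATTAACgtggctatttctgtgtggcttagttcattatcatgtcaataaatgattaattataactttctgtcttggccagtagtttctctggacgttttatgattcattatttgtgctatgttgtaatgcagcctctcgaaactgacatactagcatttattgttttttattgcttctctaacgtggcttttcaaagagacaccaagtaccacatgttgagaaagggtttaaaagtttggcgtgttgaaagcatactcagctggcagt
Slc51a: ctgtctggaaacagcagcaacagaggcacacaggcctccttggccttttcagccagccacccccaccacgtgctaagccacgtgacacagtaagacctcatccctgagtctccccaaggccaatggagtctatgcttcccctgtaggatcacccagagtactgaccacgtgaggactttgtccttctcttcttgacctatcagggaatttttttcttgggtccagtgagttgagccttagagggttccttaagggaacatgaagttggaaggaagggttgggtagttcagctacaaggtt

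Windows were searched on both strands for the FXR element, an inverted repeat of AGGTCA with 1 base between the copies, and the HNF1 element, an inverted repeat of GTTAAT with 1 base between them, each with up to 2 mismatches. The letters AGATAA, bound by zinc finger proteins of the Gata4 family, were searched with no mismatch. The same was done for TCAAGG, bound by the receptor LRH-1. Of the 7 genes 6 had a window in the table, Fgf15 being the other. The Fabp6 window held a pair of inverted repeat matches, starting at -222 (AGGTGAATGACCA, with C5G and T13A) and at -142 (AGGTGAATAACCT, with C5G and G9A), where positions in a motif count from 1 at its 5′ end, its own base comes first and the window's base last. Such a match occurs in 1.14% of 32851 windows of the same length. The Fabp6 promoter is known to be activated by FXR. The Slc10a2 window held an HNF1 match starting at -224 (ATTAATTATTAAC, with G1A), and 1.36% of windows hold one. HNF1 alpha is known to be needed for Slc10a2 in mice. The Slc51a window held none of the 4 motifs, which says only that these letters are not there. Nr1h4 held an HNF1 match at -40 and AGATAA on the opposite strand at -131 (11.2% of windows), and Nr0b2 held TCAAGG at -68 and -35 (14.4% of windows). No motif matches overlapped in these windows, and none of them is evidence of binding.

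Slc51a, the alpha subunit of the exporter that passes bile acids and steroids to the portal blood, was bright on every array. It read 5907, 6198, 4201, 5918 and 4116 on Klf9KO replicates 1 to 5, against 4668, 4965, 6028, 4225 and 6126 on Klf9WT replicates 1 to 5. High and low arrays were mixed in both genotypes, over a 1.51-fold range. The SD within genotypes was 0.26 on the log2 scale, against the median of 0.21 over all tested probe sets, and 29.5% of them had a larger one. The log2 difference was 0.01 ± 0.15 (SE; limma adjusted p = 0.992; 95% interval -0.31 to 0.33), and -0.07 without both arrays labelled replicate 1. Within wash runs 1, 2 and 3 it was 0.33, -0.02 and -0.57, and -0.15 within module 4. The probe set is of a type whose probes may read related transcripts too.

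Nr1h4, which encodes the bile acid receptor FXR, had a moderate signal on all arrays. It read 329, 434, 657, 494 and 576 on Klf9KO replicates 1 to 5, against 447, 464, 708, 506 and 480 on Klf9WT replicates 1 to 5. Klf9KO replicate 1 was the lowest of the 10 and Klf9WT replicate 3 the highest, with the other Klf9WT arrays close together. The log2 difference was -0.07 ± 0.17 (SE; limma adjusted p = 0.941; 95% interval -0.43 to 0.29). Its sign turned without 1 array of either genotype, with 0.05 without Klf9KO replicate 1, 0.03 without Klf9WT replicate 3 and 0.01 without both arrays labelled replicate 1. Within wash runs 1, 2 and 3 it was -0.24, -0.07 and 0.24, and 0.23 within module 4.

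Of the genes that FXR is known to induce, Nr0b2 and Fgf15 were dim, with a mean below the filter, while Fabp6 and Slc51a were above it. Fabp6 itself read only 176 to 277 on its 4 lowest arrays. Signals of different probe sets were not compared as levels of their genes. Nr0b2, the repressor SHP, read 67.1, 68.2, 62.7, 46.3 and 33.4 on Klf9KO replicates 1 to 5, against 44.9, 91.7, 29.9, 28.0 and 105 on Klf9WT replicates 1 to 5. The Klf9KO arrays lay inside the Klf9WT range, with a log2 difference of -0.01 (95% interval -0.45 to 0.43 from the fit without the filter; exact permutation p = 0.968) and -0.09 without both arrays labelled replicate 1. Fgf15, the ileal hormone that acts on the liver to lower bile acid synthesis, read 86.4, 9.10, 71.7, 26.7 and 58.2 on Klf9KO replicates 1 to 5, against 36.2, 29.8, 100.4, 101.3 and 69.5 on Klf9WT replicates 1 to 5. The ranges overlapped over most of their length.

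For Fgf15 the log2 difference was -0.24 (95% interval -0.79 to 0.31 from the fit without the filter; exact permutation p = 0.437), and -0.47 without both arrays labelled replicate 1. Within wash runs 1, 2 and 3 it was 0.11, -0.64 and -0.14, and -0.02 within module 4. In the fit without the filter the adjusted p of the 3 dim genes was 0.997 (Slc10a2), 0.880 (Fgf15) and 0.996 (Nr0b2). Within wash runs 1, 2 and 3 Slc10a2 differed by 0.23, -0.45 and 0.48 and Nr0b2 by 0.02, 0.40 and -0.89. Within module 4 these 2 differed by 0.05 and -0.33.

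**Figure D2:**
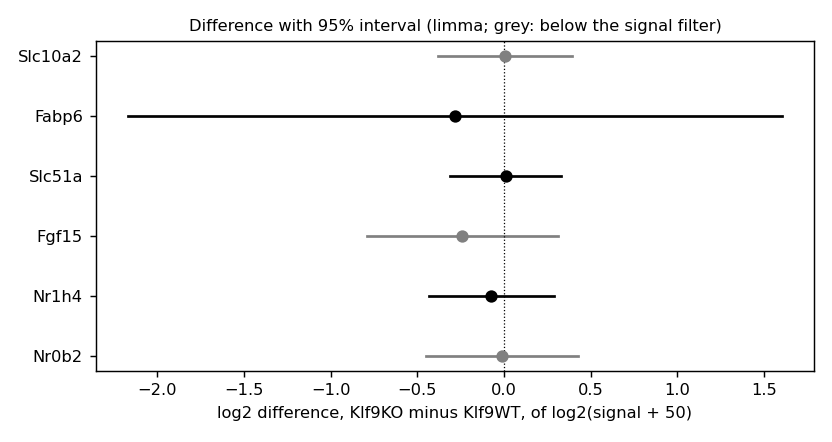
Log2 difference between Klf9KO and Klf9WT arrays (x axis, Klf9KO minus Klf9WT, 5 arrays each) for the 6 genes with a probe set (y axis). Points are differences and lines 95% intervals from limma, grey for genes below the signal filter; every interval includes 0, and that of Fabp6 reaches from -2.17 to 1.60.

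Although genotype did not separate them, Fabp6 and Fgf15 went up and down together over the 10 arrays. Pearson's r on the log2 scale was 0.83 (permutation p = 0.0030, adjusted p = 0.045 over the 15 pairs of the 6 genes) and Spearman's rho 0.82 (permutation p = 0.0062, adjusted p = 0.094). It was 0.87 without the 2 arrays farthest from the median of Fabp6, Klf9KO replicate 2 and Klf9WT replicate 3 (adjusted permutation p = 0.089), and 0.84 with each genotype centred on its own mean (adjusted permutation p = 0.033). Leaving out each array in turn gave 0.81 to 0.88. This was the 1 pair of 15 that passed, and 0.287% of the other tested probe sets had as high an r with Fabp6. All Fgf15 signals lay below the filter, on the 4 arrays of lowest Fabp6 between 9.10 and 36.2 and on the other 6 between 58.2 and 101.3. That split was not planned and describes the same values that gave r, so it adds no support.

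The correlations of Slc10a2 and Nr1h4 with Fabp6 did not pass and moved with single arrays. For Slc10a2, r was 0.70 (permutation p = 0.027, adjusted p = 0.18), rho 0.35 (adjusted permutation p = 0.41), and r 0.49 without the same 2 arrays and 0.31 without Klf9WT replicate 3 alone. For Nr1h4, r was 0.50 (permutation p = 0.14, adjusted p = 0.35) and rho 0.49 (adjusted permutation p = 0.31). Without Klf9WT replicate 3 the r of Nr1h4 was 0.13, and without Klf9KO replicate 1 it was 0.89. Slc51a (r = -0.03, rho -0.32, adjusted permutation p = 0.95 and 0.43) and Nr0b2 (r = -0.50, rho -0.49, adjusted permutation p = 0.35 and 0.31) did not pass. Without the same 2 arrays their r was -0.31 and -0.30, and that of Nr1h4 was 0.05. The relations over all 10 arrays span both genotypes, 3 wash runs and 4 modules, and runs and modules hold too few arrays for a value of their own.

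**Figure D3:**
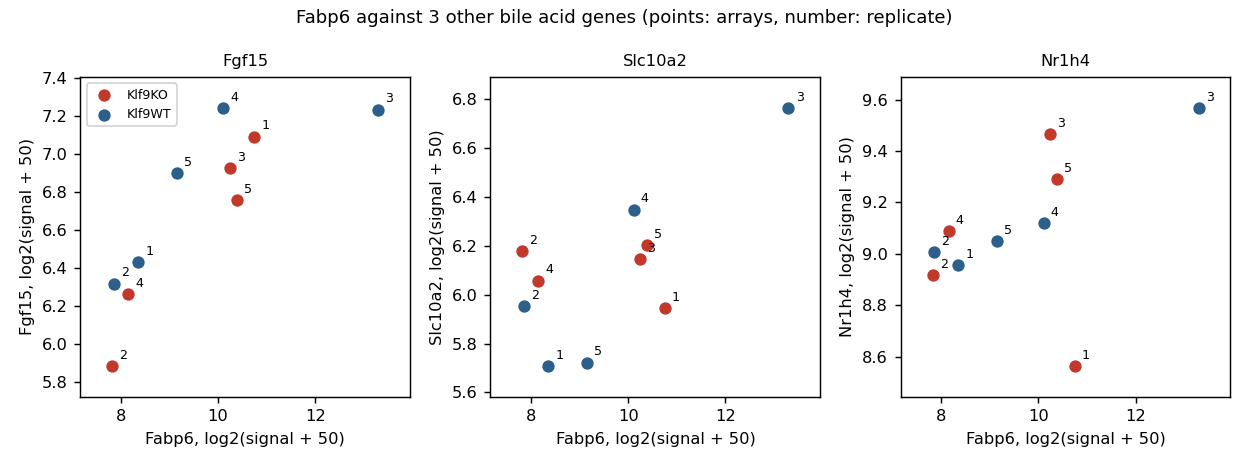
Fgf15, Slc10a2 and Nr1h4 (y axes) against Fabp6 (x axes), all as log2(signal + 50), with 1 point per array, coloured by genotype and numbered by replicate. Fgf15 rises with Fabp6 over both genotypes (r = 0.83), while the relation of Slc10a2 rests on Klf9WT replicate 3 and Nr1h4 is low on Klf9KO replicate 1.

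Klf9WT replicate 3 also had low signals of genes that mark the proximal small intestine, a trait that Klf9KO replicates 3 and 5 shared in part. Klf9WT replicate 3 was the lowest of the 10 arrays for 7 of 11 proximal genes above the filter. Among all tested probe sets it was the lowest for 9.85%. It read 165 for Slc46a1, the proton-coupled folate transporter, against 277 to 1149 on the other 9 arrays, and 5442 for Apoa4, an apolipoprotein of chylomicrons, against 9677 to 17912. Fabp1 was 8527 there, against 11082 to 18369 on the other arrays, and Gata4 was 987, against 1016 to 1276. Lct, Gip and Cck, which encode lactase and the hormones GIP and cholecystokinin, were the other 3 at their lowest there. Klf9KO replicate 3 was the next lowest for Slc46a1 (277), Apoa4 (9677), Fabp1 (11082), Gata4 (1016), Lct (5732) and Gip (900). The 14 proximal genes with a probe set summed to 23296 on Klf9WT replicate 3, 30475 on Klf9KO replicate 3 and 36149 on Klf9KO replicate 5. Their sum was 41490 to 54729 on the remaining arrays. Fabp6 read 1160 on Klf9KO replicate 3 and 1290 on Klf9KO replicate 5. Klf9WT replicate 3 was not the lowest for any of 8 general enterocyte genes. Their summed signal was 90733 there, against 81641 to 125808 on the others. That is near the low end, with only Klf9KO replicates 3 and 5 lower (81641 and 90654). Outside these lists Klf9WT replicate 3 was low for adipose genes, as were Klf9WT replicates 1 and 5. The 4 adipose genes summed to 465 on Klf9WT replicate 3, 746 on replicate 1 and 729 on replicate 5. Their sum was 1278 to 3172 on the remaining arrays. Cidec (162 against 272 to 619) and Retn (113 against 172 to 446) were at their lowest on Klf9WT replicate 3. Car3 was 156 there (84.3 to 1854 on the others) and Adipoq 33.9 (2.90 to 620), both lowest on Klf9WT replicate 1. Of 5 pancreatic acinar genes above the filter, Klf9WT replicate 3 was the highest for Prss2 (491 against 185 to 427) and Cel (228 against 124 to 222). The others lay inside the range of the other arrays there, Clps at 1628 (1300 to 2226), Cela1 at 434 (339 to 537) and Ctrb1 at 325 (75.5 to 447). The acinar genes with a probe set summed to 3228 there, inside the 2430 to 3698 of the other arrays. Klf9KO replicate 1 was the highest for another 2 of the 5. Klf9WT replicate 3 was the highest for 13.2% of all tested probe sets and Klf9KO replicate 1 for 14.0%. The part of these other tissues in the bile acid gene levels of Klf9WT replicate 3 was not tested.

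Distal genes outside bile acid handling did not follow Fabp6 as a group. Klf9WT replicate 3 was the highest of the 10 arrays for 2 of 7 distal genes above the filter, and for 13.2% of all tested probe sets. Klf9KO replicate 1 was the highest for 3 of the 7, and for 14.0% of all tested. The 2 genes were Pyy, which encodes peptide YY (1190 against 504 to 1082 on the others), and Car4, a carbonic anhydrase (3937 against 1926 to 3480). For Amn, which with Cubn forms the ileal receptor for vitamin B12, Klf9WT replicate 3 was the lowest (3042 against 3297 to 5537). Cubn itself read 916 there against 655 to 3762. Gcg, the glucagon gene, Nts, which encodes neurotensin, and Fxyd4, a regulator of the sodium pump, lay inside the range of the other arrays.

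Over all 10 arrays, Fabp6 was set against 26 distal, proximal and enterocyte genes, and 0 of the 26 correlations passed after adjustment. The 6 with an unadjusted permutation p under 0.05 were Fabp1 (r = -0.81, rho -0.53), Pyy (0.79, 0.76), Cck (-0.78, -0.76), Apoa4 (-0.73, -0.53), Gata4 (-0.71, -0.52) and Slc46a1 (-0.66, -0.22). Their adjusted permutation p was 0.092, 0.092, 0.094, 0.11, 0.11 and 0.15 for r and 0.54, 0.20, 0.20, 0.54, 0.54 and 0.82 for rho. Without the 2 farthest arrays r was -0.50, 0.68, -0.50, -0.39, -0.51 and -0.27. Without Klf9WT replicate 3 alone it was -0.53, 0.68, -0.58, -0.31, -0.54 and -0.28, in the same order. Among all tested probe sets 4.70% had an r with Fabp6 of at least 0.6 and 3.31% of at most -0.6.

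**Figure D4:**
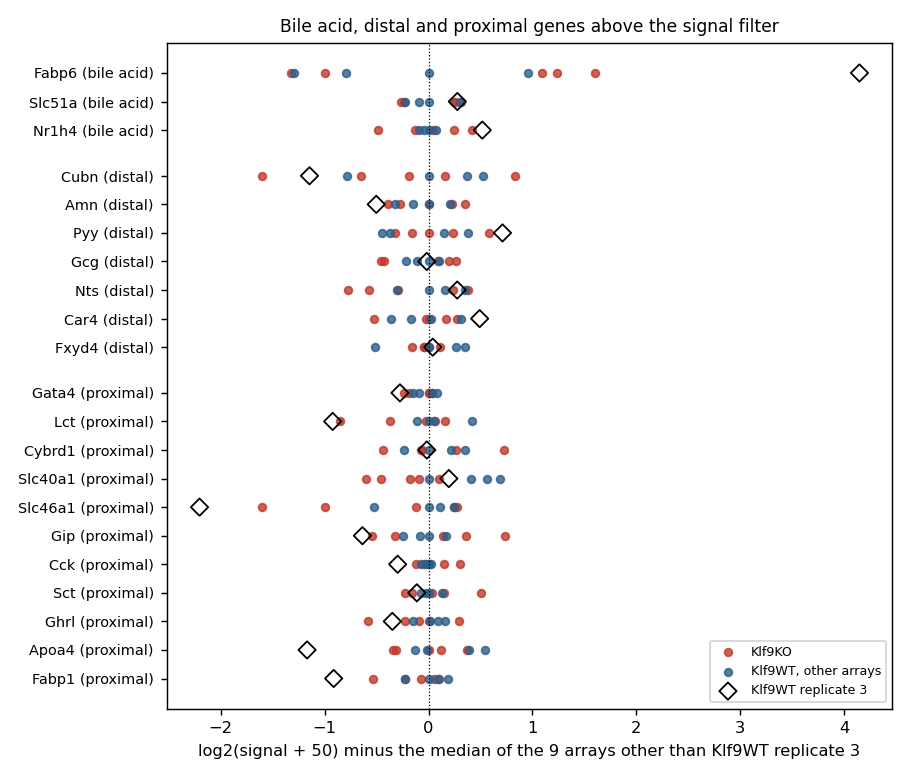
Signal of each bile acid, distal and proximal gene above the filter (y axis) as log2(signal + 50) minus the median of the 9 arrays other than Klf9WT replicate 3 (x axis). Dots are arrays and diamonds Klf9WT replicate 3, which lies 4.15 above that median for Fabp6 and 2.20 below it for Slc46a1.

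Between the genotypes, 0 of 11 proximal and 0 of 7 distal genes passed in limma. Proximal genes were 8 higher and 3 lower on the Klf9KO arrays with a median log2 difference of 0.04. Distal genes were 1 higher and 6 lower with a median of -0.06. Of all tested probe sets 6607 were higher and 6977 lower, with a median of -0.01. The proximal count turned to 2 higher and 9 lower without Klf9KO replicate 1, and to 4 higher and 7 lower without Klf9WT replicate 3 or without both arrays labelled replicate 1. The distal genes were 3 higher and 4 lower in each of these cases. Slc40a1, the iron exporter ferroportin, had the lowest p among the proximal genes. It read 300.4, 222, 196, 351 and 281 on Klf9KO replicates 1 to 5, against 446, 323, 378, 551 and 502 on Klf9WT replicates 1 to 5. Its log2 difference was -0.61 ± 0.16 (SE; limma adjusted p = 0.440), with an overlap of 1 Klf9KO array, replicate 4, and -0.41 ± 0.14 on another probe set. Gip differed by 0.23 ± 0.22, Cck by 0.13 ± 0.11, Sct, which encodes secretin, by 0.08 ± 0.13, and Gata4 by 0.00 ± 0.10 (SE). Gata4 on its other probe set differed by -0.17 ± 0.22. Among distal genes Nts differed by -0.30 ± 0.21, Amn by 0.14 ± 0.16, Car4 by -0.08 ± 0.18 (0.10 ± 0.22 on another probe set) and Fxyd4 by -0.06 ± 0.15 (SE).

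The other genes of bile acid handling and sensing did not pass either. Of 29 listed, 24 had a probe set and 18 were tested. These were 12 higher and 6 lower on the Klf9KO arrays, 0 past the threshold, with a median log2 difference of 0.10. Of all tested probe sets 6607 were higher and 6977 lower, with a median of -0.01. Klf9KO replicate 1, whose Klf9 signal goes against its label, was the highest of the 10 arrays for 11 of the 18 (61.1%), where it was the highest for 14.0% of all tested probe sets. Without it 11 were higher and 7 lower, with a median of 0.07, and without Klf9WT replicate 3 there were 10 higher and 8 lower, with a median of 0.11. Nr3c1, the glucocorticoid receptor, was the 1 of the 18 without overlap, where 1.55% of all tested probe sets were without overlap. It read 1288, 1369, 1433, 1443 and 1671 on Klf9KO replicates 1 to 5, against 1676, 1786, 2253, 1980 and 2026 on Klf9WT replicates 1 to 5. The groups met at 1671 (Klf9KO replicate 5) and 1676 (Klf9WT replicate 1). The log2 difference was -0.42 ± 0.11 (SE; limma adjusted p = 0.440), and -0.36 ± 0.20 and -0.14 ± 0.11 on its other probe sets.

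Rxra, the partner with which FXR binds DNA, differed by 0.25 ± 0.14, but by -0.27 ± 0.18 (SE) on another probe set. Nr5a2, the receptor LRH-1, differed by 0.19 ± 0.12, and by -0.33 ± 0.17 and -0.24 ± 0.16 on other probe sets. Nr1i2, the xenobiotic receptor PXR, which also senses bile acids, differed by 0.27 ± 0.19 and by 0.31 ± 0.15 on another probe set. The liver enzymes of bile acid synthesis Cyp7a1 and Cyp8b1 were at most 154 on any array, and the hepatocyte uptake and export pumps Slc10a1 and Abcb11 at most 150 and 116, all below the filter.

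Markers of other cells and organs were read on the same arrays. Liver genes, of a tissue that also expresses Nr1h4 and Nr0b2, summed to 462 to 654 on the Klf9KO arrays and 406 to 514 on the Klf9WT arrays over 6 genes, with 4 of 6 below the filter. Among tested genes, liver was 2 higher and 0 lower, pancreatic acinar cells 3 and 2, enterocytes 0 and 8, smooth muscle 6 and 0, adipose tissue 4 and 0, and B and plasma cells 0 and 5. Of all 13584 tested probe sets 6607 were higher and 6977 lower. A limma unadjusted p under 0.05 was found for 3 of 4 adipose, 2 of 6 smooth muscle and 2 of 5 pancreatic genes. It was found for 1 of 5 B and plasma cell genes, 0 of 8 enterocyte and 0 of 2 liver genes, and 7.89% of all tested. None of these marker genes passed in limma, as 0 of all tested probe sets did, and their lowest adjusted p was 0.466. Their part in the levels of the bile acid genes was not tested.

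Genes with the most similar pattern were ranked by Pearson's r over the 10 arrays among 8291 genes, as a description. The mean standardised profile of Fabp6, Slc51a and Nr1h4 was most like Mrpl9 (0.91), Sf3a1 (0.89), Eif1a (0.88), Nabp1 (0.88) and Gnl3 (0.87), and most opposite to Polr3c (-0.94), Dapk3 (-0.92), Terf2 (-0.91), Atf7ip (-0.90) and Rbp2 (-0.88). Rbp2, the retinol carrier of the enterocyte, read 5591 on Klf9WT replicate 3 against 8633 to 12847 on the others. That profile was 1.56 on Klf9WT replicate 3 and between -0.61 and 0.18 on the others. The genes behind it did not vary together as a set. Their r was 0.50 for Fabp6 with Nr1h4, -0.03 for Fabp6 with Slc51a and -0.33 for Slc51a with Nr1h4. For Fabp6 alone, a ranking chosen after its values were seen, the highest were Mrpl50 (0.93), Rnf2 (0.92), Ptch1 (0.90), Fkbp7 (0.90) and Naip6 (0.90). Ptch1, the hedgehog receptor, read 603, 395, 441, 398 and 509 on Klf9KO replicates 1 to 5, against 410, 386, 619, 533 and 417 on Klf9WT replicates 1 to 5. The lowest were Bcl9l (-0.91), Bcar3 (-0.89), Cd36 (-0.85), Retsat (-0.85) and Agap2 (-0.85). Cd36, the fatty acid transporter of the proximal gut, read 143 on Klf9WT replicate 3 against 247 to 433 on the other arrays. Every gene named in these rankings had its highest or its lowest signal of the 10 arrays on Klf9WT replicate 3, so the rankings lean on that array.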

How the data were processed

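Each deposited value is the signal intensity of 1 probe set on a linear scale, quantified with MAS 5.0 per the series' design text. Every deposited array had a 2% trimmed mean of about 500. Arrays were set to exactly 500, and log2(signal + 50) was taken. Fluidics module and hybridization time came from the instrument records. Times more than 30 minutes apart, a gap chosen here, separated 3 groups of arrays that are called wash runs here. Control probe sets (64) were left out. Probe sets with a mean above the 40th percentile (123), and all Klf9 probe sets, were tested (13584). Detection calls were not used here.

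Symbols came from the platform annotation, updated by gene ID from RefSeq (GRCm38.p6) for 20351 of 20380 probe sets with 1 symbol. Probe sets with several (691) or none (1555) were not named. The brightest tested probe set stood for a gene. Genotypes were compared in limma 3.58.1 (R 4.3.3; lmFit, eBayes with trend, two-sided, Benjamini-Hochberg over all tested probe sets, threshold 0.05), with exact permutation of the arrays for dim genes. P-values of the genotype comparison set a difference against the spread between these arrays. Whether that is a spread between animals or between RNA pools is not settled by the sources. On simulated arrays for this comparison (13584 probe sets) the fit called 89 of 100 planted 2-fold and 52 of 100 planted 1.5-fold changes, with 3 false calls. The simulated noise was independent between probe sets and arrays, and every label was right. Shifts shared by many genes on 1 array and labels in doubt were not simulated. The real arrays may therefore detect less, and Klf9 itself did not pass on them. Correlations used 100000 permutations. Promoter windows were RefSeq's.

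The genes, the lists (other bile acid genes, distal, proximal, enterocyte, smooth muscle, adipose, B and plasma cell, pancreatic acinar and liver) and the tests were chosen with earlier results of these data known. Named were all bile acid probe sets, Klf9, Gata4, the 4 genes of lowest p in the bile acid, distal and proximal lists, and the 5 genes most and least alike in pattern. Other genes, and those read on Klf9WT replicate 3, were named after their values were seen. Alternatives were other offsets, filters, scalings, variance models, array weights, blocks and arrays left out. The correlations with distal, proximal and enterocyte genes and the list counts with arrays left out were added after the data were seen. So were the correlation values without Klf9WT replicate 3 alone and the split of the arrays by Fabp6.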

Additional observations from a re-analysis of the deposited data

Results flagged for a closer look

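Tests of the highest and lowest array of each genotype, 50 in all, gave 4 flags of an array apart from its group. The same Nr1h4 value was flagged on the signal and on the log2 scale. Chance alone would flag about 1 in 20, but bile acid genes were tested on both scales, so the tests were not all separate. Fabp6 was 10006 on Klf9WT replicate 3, far above the other 4 Klf9WT arrays on the signal scale but not on the log2 scale. Nr1h4 was 708 on the same array, apart from the other Klf9WT arrays on both scales. Nr1i2 was 1111 on Klf9WT replicate 2, apart from the other Klf9WT arrays on the log2 scale.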

How the results depend on the processing

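For the 3 bile acid genes above the filter, 0 genotype differences passed under any alternative run. The 3 dim genes had an adjusted p only in the fit without the filter, where 0 passed, so the other runs could not call them. The sign of the small differences was not stable. With the fluidics module as a block, where 1 Klf9KO array informs the value, Fabp6 was 1.41, Slc51a -0.15 and Nr1h4 0.23. An offset of 100 gave -0.0093 for Slc10a2. For Nr0b2, offsets of 1 and 16 gave 0.055 and 0.017, quantile normalization 0.013 and cyclic loess 0.0076. Without both arrays labelled replicate 1, Fabp6 was -0.95, Slc10a2 -0.051, Slc51a -0.071 and Nr1h4 0.0057. Leaving out each array in turn gave -0.091 to 0.17 for Slc10a2, -0.76 to 0.60 for Fabp6, -0.060 to 0.093 for Slc51a, -0.17 to 0.051 for Nr1h4, -0.12 to 0.13 for Nr0b2 and -0.37 to -0.07 for Fgf15. An offset of 1 moved Slc10a2 to 0.63, since its signals lie near 0. Among all probe sets 0 passed, against 3 with array weights, 9 without both arrays labelled replicate 1 and 0 to 5 with 1 array left out. With an unadjusted p under 0.05 there were 1072, against 1624 with no filter and 471 with the module as a block. In the other bile acid, distal and proximal lists 0 passed under each alternative run. With the module as a block Nr5a2 was -0.26, Nr1i2 -0.28, Amn -0.22, Car4 0.30, Cck -0.0040, Gip -0.28, Sct -0.016 and Gata4 -0.063. Gata4 was -0.011 with quantile normalization and -0.020 with cyclic loess, and Car4 0.022 with array weights. Without both arrays labelled replicate 1 Car4 was 0.035, Sct -0.028 and Fxyd4 -0.23. With 1 array left out Car4 ranged from -0.19 to 0.045, Fxyd4 from -0.19 to 0.025, Sct from -0.033 to 0.15 and Gata4 from -0.044 to 0.045.

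The correlation of Fabp6 with Fgf15 kept its size but not its call with Spearman's rho (0.82, adjusted permutation p = 0.094), without the 2 farthest arrays (0.87, 0.089) and without Klf9WT replicate 3 (0.88, 0.062), where fewer arrays were left. A mean over a gene's probe sets gave no value, as each bile acid gene has 1. The cause of the other changes was not tested. The replicate block changed no call (Fabp6 -0.28, adjusted p = 0.920; 0 of all probe sets). The numbers were not taken as pairs, since not every same-numbered pair had a correlation of its deviations above 0.1 (range -0.12 to 0.28). As a hint from the data, 3 of 5 pairs were above it and 6 of 10 arrays correlated best with their own number, and same-numbered arrays share a wash run.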
